A study of Homo sapiens with 9 samples.

Results

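The genes described here encode immune checkpoint ligands, the surface proteins, with a secreted lectin among them, through which a tumour cell can signal to T cells, natural killer cells and macrophages. They were chosen by name from the textbook families, with earlier results of these data known: CD274, PDCD1LG2, CD276, VTCN1, HHLA2, LGALS9, CD47, TNFRSF14, ICOSLG and PVR. These are 10 of the 23284 gene symbols in the data, and all 10 were found and tested. The data are paired-end RNA-Seq profiles of 9 cultures of HT-29, an established human colon cancer cell line grown without immune cells. The control cultures (0 µM) received the vehicle dimethyl sulfoxide alone, and the treated cultures received 5 µM or 10 µM 5-Aza (5-aza-deoxy-cytidine, an inhibitor of the enzymes that methylate DNA) for 5 days, with 3 separate cultures per group. All samples come from a single cell line, so the replicate spread is that between cultures and not between patients. The values are FPKM, sequenced fragments scaled by transcript length and library size, which are per length and can be compared between genes within a library. Depth is not given in the files. A relative library term, read from the FPKM value of a single fragment, was 1.0, 1.51 and 2.14 in the controls. It was 2.41, 2.29 and 2.57 at 5 µM and 1.27, 2.01 and 1.7 at 10 µM. A single fragment thus counted fewer FPKM in every 5 µM library than in any control. The part of this difference in genes listed at 0 in the controls was not tested. The FPKM values of a library summed to between 3.69e+09 and 5.91e+09, so an FPKM is read as a relative value. The sums were 5.19e+09 to 5.91e+09 in the controls, 4.49e+09 to 4.72e+09 at 5 µM and 3.69e+09 to 5.08e+09 at 10 µM. Their part in the changes given below was not tested.

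Checkpoint ligands bind receptors on immune cells and lower, or in some cases raise, their activity. CD274 (PD-L1) and PDCD1LG2 (PD-L2) bind PD-1 on T cells, CD276 (B7-H3), VTCN1 (B7-H4) and HHLA2 are relatives in the same B7 family, and ICOSLG is the B7 ligand of the costimulatory receptor ICOS. CD47 sends a signal to macrophages through SIRPA that restrains engulfment, PVR (CD155) is shared by the receptors TIGIT, CD96 and CD226, TNFRSF14 (HVEM) binds BTLA and CD160, and LGALS9 (galectin-9) is a secreted lectin reported to bind HAVCR2 (TIM-3). Transcription of CD274 is a classical target of interferon-gamma, which acts through JAK1, JAK2 and IRF1 among others, and methylation of CpG-rich promoters is associated with silent genes.

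To show what sequence lies upstream of genes with different responses, the 250 bases before an annotated start are given for 4 ligands: CD274, HHLA2 and VTCN1, which were called higher at 5 µM 5-Aza (adjusted p at most 0.05 and more than 2-fold), and PVR, the most abundant member, which was lower. The sequences are from RefSeq on GRCh38.p14, are written 5′ to 3′ on the strand of the gene, and have each CpG dinucleotide in capitals. They lie at chr9:5450292-5450541 (plus strand, CD274), chr3:108296298-108296547 (plus strand, the first of 3 annotated starts of HHLA2), chr1:117210928-117211177 (minus strand, VTCN1) and chr19:44643660-44643909 (plus strand, PVR).
CD274: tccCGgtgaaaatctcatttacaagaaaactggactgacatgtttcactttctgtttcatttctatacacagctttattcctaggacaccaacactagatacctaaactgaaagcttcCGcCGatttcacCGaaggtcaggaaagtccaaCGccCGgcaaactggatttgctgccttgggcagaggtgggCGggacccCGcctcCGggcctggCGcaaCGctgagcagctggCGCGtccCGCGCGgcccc
HHLA2: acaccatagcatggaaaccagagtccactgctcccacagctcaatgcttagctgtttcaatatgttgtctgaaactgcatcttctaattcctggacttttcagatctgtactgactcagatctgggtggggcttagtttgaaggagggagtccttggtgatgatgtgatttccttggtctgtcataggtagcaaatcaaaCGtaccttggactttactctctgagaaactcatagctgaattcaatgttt
VTCN1: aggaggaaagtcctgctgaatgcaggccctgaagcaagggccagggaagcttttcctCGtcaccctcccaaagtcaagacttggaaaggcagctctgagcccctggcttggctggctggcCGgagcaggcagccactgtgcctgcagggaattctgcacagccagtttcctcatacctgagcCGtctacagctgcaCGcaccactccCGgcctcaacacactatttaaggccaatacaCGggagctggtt
PVR: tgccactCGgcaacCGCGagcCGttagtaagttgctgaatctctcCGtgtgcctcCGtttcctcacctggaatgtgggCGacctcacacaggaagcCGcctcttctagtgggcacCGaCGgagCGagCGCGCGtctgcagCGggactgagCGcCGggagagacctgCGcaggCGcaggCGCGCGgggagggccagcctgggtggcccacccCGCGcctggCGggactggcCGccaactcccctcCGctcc

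The 4 windows differ in CpG number: 27 in PVR, 16 in CD274, 6 in VTCN1 and 1 in the first HHLA2 window. Over the 35116 promoter windows of the RefSeq table the median was 11 CpG, with quartiles of 3 and 23. The CD274 window was also searched, as were those of the other members, for an ISRE-like motif (GAAA, any 2 bases and GAAA again, both strands) and a GAS-like motif (TTCNNNGAA, which reads the same on both strands), the short forms of the elements that interferon-activated factors bind. CD274 held an ISRE-like match on the reverse strand, printed in the direction of the gene as TTTCACTTTC, at chr9:5450334-5450343. A further match, TTTCTGTTTC at chr9:5450340-5450349, overlaps the former, and a GAS-like match, TTCACCGAA, stands at chr9:5450417-5450425. Among all windows 3.02% held the ISRE-like and 6.57% the GAS-like letters, and none of the windows of the other 8 members with an entry held either. These matches describe the sequence alone. No entry for PDCD1LG2 was used.

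In the control cultures the 10 transcripts differed widely in mean FPKM, a level per length. PVR was highest at 1764010 ± 44314 (SD, n = 3), followed by TNFRSF14 at 338753 ± 23400, CD276 at 245261 ± 11523, LGALS9 at 190845 ± 32652 and CD47 at 71179 ± 10354. The replicates of these 5 genes did not overlap with those of the next gene in the order. ICOSLG (15437 ± 3676) and HHLA2 (12688 ± 1336) did overlap, CD274 lay below both at 2646 ± 195, and PDCD1LG2 (108 ± 187) and VTCN1 (98.2 ± 170.0) were at the bottom and overlapped each other. Among the symbols above 0 in a library, PVR stood between the percentiles 96.5 and 97.7 over the 9 samples, whereas CD274 stood between 15.2 and 27.85. At 5 µM and at 10 µM PVR was again first and CD47 in the same place, but HHLA2 now stood above ICOSLG with no overlap between their replicates. LGALS9 and TNFRSF14 overlapped at both concentrations, and at 10 µM LGALS9 also overlapped with CD276.

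**Figure D1:**
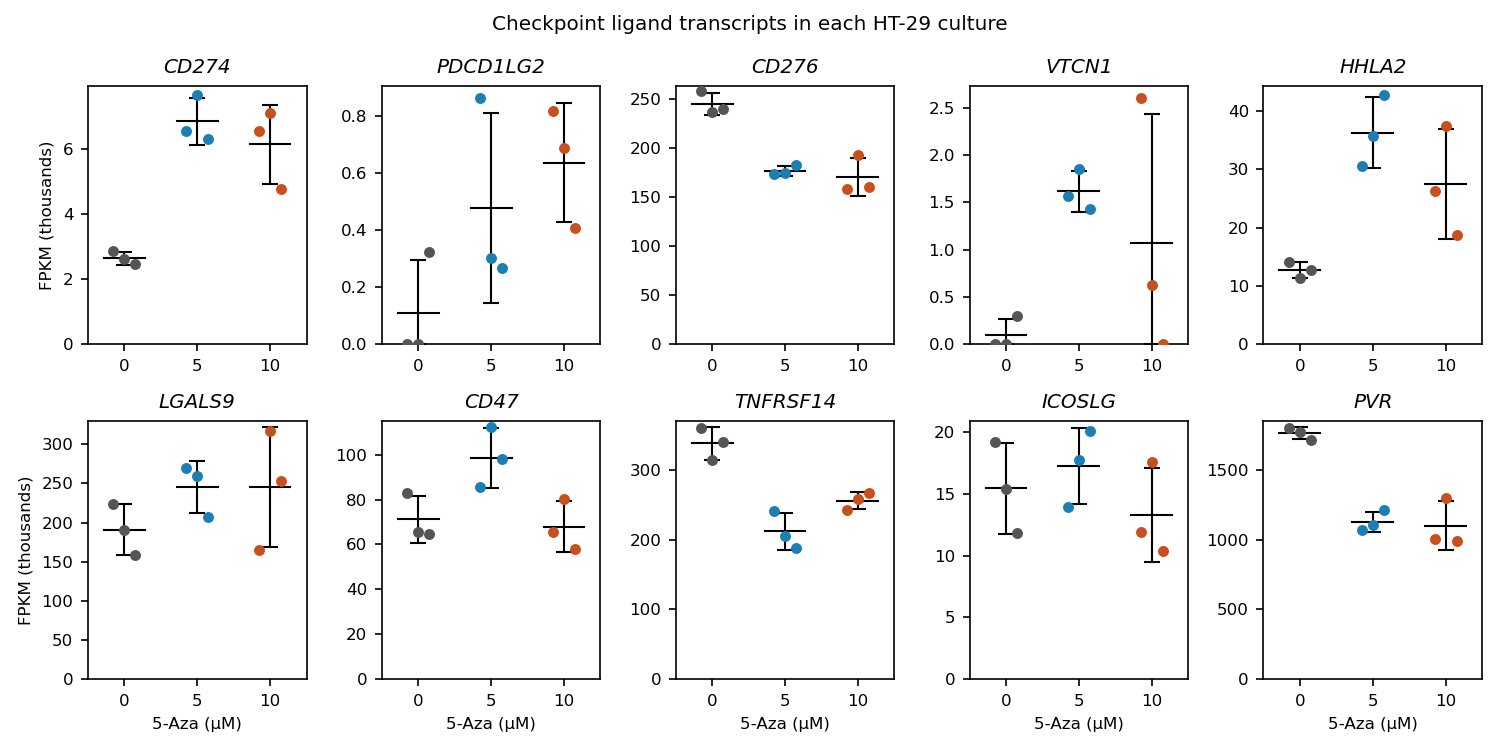
FPKM divided by 1000 (vertical axes, from 0, a separate scale for each gene) of the 10 ligand transcripts in each HT-29 culture at 0, 5 and 10 µM 5-Aza (horizontal axes). Points are cultures, long bars are group means and whiskers are 1 SD (n = 3; the lower whisker stops at 0). CD274 and HHLA2 lie above all 3 controls in all 6 treated cultures, and CD276, TNFRSF14 and PVR lie below them.

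CD274 transcripts were higher in every treated culture than in any control. The FPKM values were 2854, 2617 and 2467 in the controls, 6570, 7682 and 6312 at 5 µM, and 6563, 7104 and 4773 at 10 µM. All 6 treated cultures exceeded the highest control, while the ranges at 5 µM and 10 µM overlapped. On the log2(FPKM + 1) scale, on which all changes here are given, CD274 rose by 1.37 (SE 0.25, 95% interval 0.77 to 1.97, adjusted p = 0.00655) for 5 µM vs. 0 µM, a 2.59-fold change. The difference for 10 µM vs. 0 µM was 1.20 (SE 0.37, 95% interval 0.33 to 2.07), which did not pass at an adjusted p of 0.0674. Between 5 µM and 10 µM it was -0.17, with an interval from -0.86 to 0.51. Adjusted p-values throughout are from limma with Benjamini-Hochberg correction over all genes tested in a comparison, and both treated groups share the same control samples. A gene is called when its adjusted p is at most 0.05 and its change exceeds 2-fold. The exact 2-sided permutation p of CD274 against the control was 0.1 at either concentration, the smallest that 3 against 3 samples can give.

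The number of fragments behind the CD274 values could be read from the data, because low FPKM values stepped in whole fragments. CD274 rested on 13, 18 and 24 fragments in the controls, 72, 80 and 74 at 5 µM, and 38, 65 and 37 at 10 µM. A CD274 fragment corresponded to 85.3 FPKM in the library where it counted least (5 µM replicate 3) and to 219.51 FPKM in control replicate 1. Set against a relative library term read from the same steps, the 226 fragments at 5 µM and the 55 in the control gave a ratio of 2.63. Its 95% interval of 1.95 to 3.6 covers counting error only. As depth is not given, this is a pooled form of the FPKM ratio and not a separate check on depth. The ratio for 10 µM vs. 0 µM (140 fragments) was 2.37, with an interval of 1.73 to 3.3, and for 10 µM vs. 5 µM it was 0.90, with an interval of 0.73 to 1.12. On GRCh37 the gene spans 5450503 to 5470566 of chromosome 9 (plus strand).

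PDCD1LG2, the other PD-1 ligand, starts 39964 bases beyond the end of CD274 on the same strand (chromosome 9, 5510531 to 5571282, GRCh37) and was close to the limit of detection. Its FPKM was 0, 0 and 324 in the controls, 862, 303 and 269 at 5 µM, and 816, 689 and 406 at 10 µM. These values rest on 2 fragments in all 3 controls together, 10 at 5 µM and 9 at 10 µM. The 5 µM replicates overlapped with the controls, while each 10 µM replicate was above them. The fragment ratio was 3.2 for 5 µM vs. 0 µM, with a counting interval of 0.68 to 30.01, and 4.2 for 10 µM vs. 0 µM, with an interval of 0.87 to 39.92. Both intervals include 1, so a difference in PDCD1LG2 was not detectable at this depth, and its adjusted p was 0.1 in both comparisons. This result depended on the setting: without control replicate 3, the only control above 0, the adjusted p was 0.00481 for 5 µM and 0.0295 for 10 µM, and with all 9 samples in one fit it was 0.0454 for 10 µM.

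**Figure D2:**
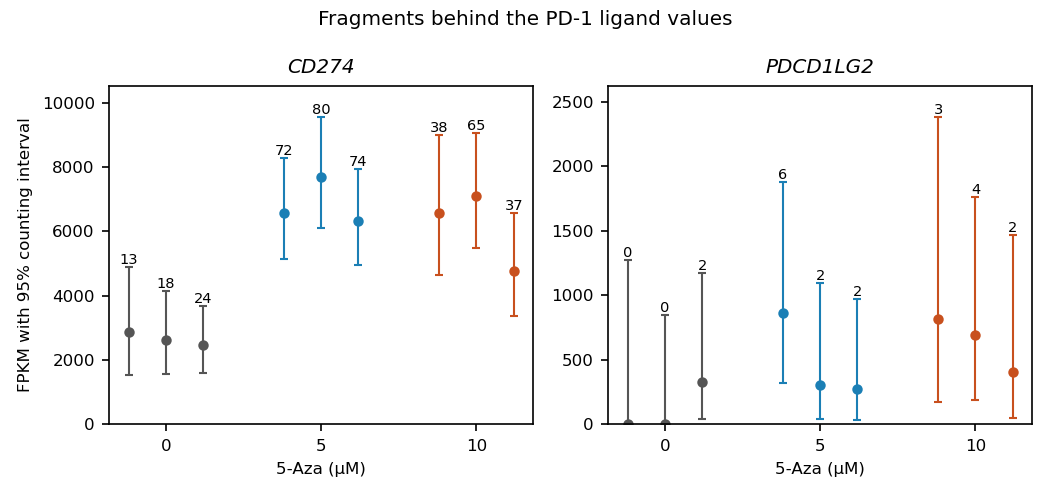
FPKM of the PD-1 ligands CD274 and PDCD1LG2 in each culture (vertical axes, from 0, separate scales) by 5-Aza concentration in µM (horizontal axes). Whiskers are exact 95% Poisson intervals for counting error and the numbers above them are whole fragments: 13 to 24 in the controls against 37 to 80 in the treated cultures for CD274, and at most 6 in any culture for PDCD1LG2.

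Of the further B7 relatives, HHLA2 had the clearest increase. Its FPKM was 14020, 11349 and 12694 in the controls, 30503, 35610 and 42678 at 5 µM, and 26231, 37439 and 18676 at 10 µM. All treated cultures were above all controls, and the 10 µM cultures spread more widely than those of the other groups. HHLA2 rose by 1.51 (SE 0.17, 95% interval 1.09 to 1.92, adjusted p = 0.00116) for 5 µM vs. 0 µM, a 2.84-fold change. At 10 µM the difference from the control was 1.06 (SE 0.29, adjusted p = 0.0509), just short of the threshold. The 10 µM vs. 5 µM difference was -0.45, with an interval from -1.11 to 0.22. HHLA2 lies on chromosome 3 of GRCh37 (108015376 to 108097132, plus strand), 204666 bases from CD47.

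VTCN1 was at or near 0 in the controls, with FPKM values of 0, 0 and 294. The values were 1568, 1857 and 1426 at 5 µM and 2600, 626 and 0 at 10 µM. Cultures at 5 µM were alike and all above the controls, whereas at 10 µM VTCN1 was above every control in 2 cultures and listed at 0 in the other. From the annotated transcript length these values correspond to an estimated 2.0 fragments in the control that was above 0 and to 11.6 to 13.4 fragments in each 5 µM culture. VTCN1 passed the threshold for 5 µM vs. 0 µM (adjusted p = 0.0369) with a fitted log2 difference of 7.92 (SE 2.31). The size of that difference depends on the constant added before the logarithm: it was 1.26 with 1000 and 10.13 with 0.1. The latter no longer passed (adjusted p = 0.0533), nor did VTCN1 pass without control replicate 1 or 2 (adjusted p = 0.0809 and 0.09) or without 5 µM replicate 1, 2 or 3 (0.108, 0.106 and 0.107). The adjusted p was 0.442 for 10 µM vs. 0 µM. VTCN1 lies on chromosome 1 of GRCh37 (117686209 to 117753582, minus strand).

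CD276 was lower in every treated culture. Its FPKM was 258389, 236819 and 240576 in the controls, 173464, 175152 and 183024 at 5 µM, and 158645, 193493 and 160339 at 10 µM. Even the lowest control exceeded the highest treated culture at both concentrations. CD276 fell by 0.47 on the log2 scale (SE 0.06, adjusted p = 0.0021) for 5 µM vs. 0 µM and by 0.53 (SE 0.13, adjusted p = 0.0366) for 10 µM vs. 0 µM, in each case by less than 2-fold. At 10 µM it did not pass without control replicate 1, 2 or 3 (adjusted p = 0.15, 0.134 and 0.1) or without 10 µM replicate 1 or 3 (0.0835 and 0.0982). ICOSLG gave no such separation: it ranged from 11803 to 19154 FPKM in the controls, from 13934 to 20076 at 5 µM and from 10368 to 17568 at 10 µM. The ICOSLG difference for 5 µM vs. 0 µM was 0.17, with an interval from -0.40 to 0.75 (adjusted p = 0.573). It was -0.23 for 10 µM vs. 0 µM, and 0.01 after median-of-ratios scaling (adjusted p = 0.601 and 0.976). CD276 lies on chromosome 15 (73976307 to 74006855, plus strand) and ICOSLG on chromosome 21 (45635265 to 45661329, minus strand) of GRCh37.

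PVR, the most abundant ligand transcript, was lower in every treated culture than in any control. Its FPKM was 1802710, 1773650 and 1715670 in the controls, 1070110, 1101840 and 1209920 at 5 µM, and 1001760, 1301110 and 992325 at 10 µM. Control cultures lay close together, and the highest treated culture was 10 µM replicate 2. PVR fell by 0.65 on the log2 scale (SE 0.07, adjusted p = 0.00123) for 5 µM vs. 0 µM and by 0.69 (SE 0.17, adjusted p = 0.0395) for 10 µM vs. 0 µM. The latter did not pass without control replicate 1, 2 or 3 (adjusted p = 0.145, 0.153 and 0.102) or without 10 µM replicate 1 or 3 (0.0727 and 0.122). Between the concentrations, 10 µM vs. 5 µM, the difference was -0.05, and 0.16 after median-of-ratios scaling, with adjusted p of at least 0.353 under every setting tried. On GRCh37 PVR lies on chromosome 19 (45147098 to 45169430, plus strand), and 3886 bases of it are shared with CEACAM19 on the same strand, which had between 99975 and 219334 FPKM.

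TNFRSF14 was also lower after treatment, with a different relation between the concentrations. Its FPKM was 361142, 314458 and 340659 in the controls, 241358, 206148 and 188831 at 5 µM, and 243389, 258261 and 266991 at 10 µM. Each group was separate from both others, with the lowest values at 5 µM. TNFRSF14 fell by 0.68 on the log2 scale (SE 0.11, adjusted p = 0.00384) for 5 µM vs. 0 µM. The difference for 10 µM vs. 0 µM was -0.40 (adjusted p = 0.0577), and after median-of-ratios scaling it was -0.16 (adjusted p = 0.369); without 10 µM replicate 2 it passed (-0.41, adjusted p = 0.0307). Against the 5 µM cultures, the 10 µM cultures differed by 0.28, with an adjusted p of 0.239. TNFRSF14 lies on chromosome 1 of GRCh37 (2487078 to 2496821, plus strand), and 1393 bases of it are overlapped by the antisense gene TNFRSF14-AS1. The RNA kit named in the study's methods does not mark strand, so reads of the pair cannot be told apart. The same holds for antisense genes annotated over 13090 bases of CD274, 60752 bases of PDCD1LG2, 22333 bases of PVR and 1295 bases of HHLA2 (a pseudogene). On the same strand, a microRNA gene shares 87 bases with HHLA2. An entry annotated as an artifact shares 14129 bases with ICOSLG, and a further entry shares 2029 bases with PVR.

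CD47 was highest at 5 µM. Its FPKM was 83119, 65750 and 64670 in the controls, 85535, 112343 and 98111 at 5 µM, and 65612, 80242 and 58082 at 10 µM. Cultures at 5 µM lay above both other groups, although 5 µM replicate 1 was only slightly above control replicate 1. CD47 rose by 0.47 (SE 0.14, adjusted p = 0.043) for 5 µM vs. 0 µM, under the 2-fold threshold, and without control replicate 2 or 3 or 5 µM replicate 2 or 3 the adjusted p was 0.119, 0.106, 0.12 and 0.119. For 10 µM vs. 5 µM the difference was -0.54 (95% interval -0.95 to -0.13, adjusted p = 0.121), and it passed without 10 µM replicate 2 (-0.67, adjusted p = 0.0337). LGALS9 varied widely within the groups: it was 158425 to 223724 FPKM in the controls, 207545 to 270159 at 5 µM and 164393 to 317415 at 10 µM, and the groups overlapped. Its difference was 0.37 for 5 µM vs. 0 µM (95% interval -0.01 to 0.75, adjusted p = 0.111) and 0.32 for 10 µM vs. 0 µM (adjusted p = 0.393). LGALS9 has the near copies LGALS9B and LGALS9C, whose reads may be split from it, but these had at most 1300 and 2529 FPKM. A protein-coding gene not named in the files also shares 10980 bases of LGALS9 on the same strand. CD47 lies on chromosome 3 (107761938 to 107810709, minus strand) and LGALS9 on chromosome 17 (25956824 to 25976586, plus strand) of GRCh37.

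**Figure D3:**
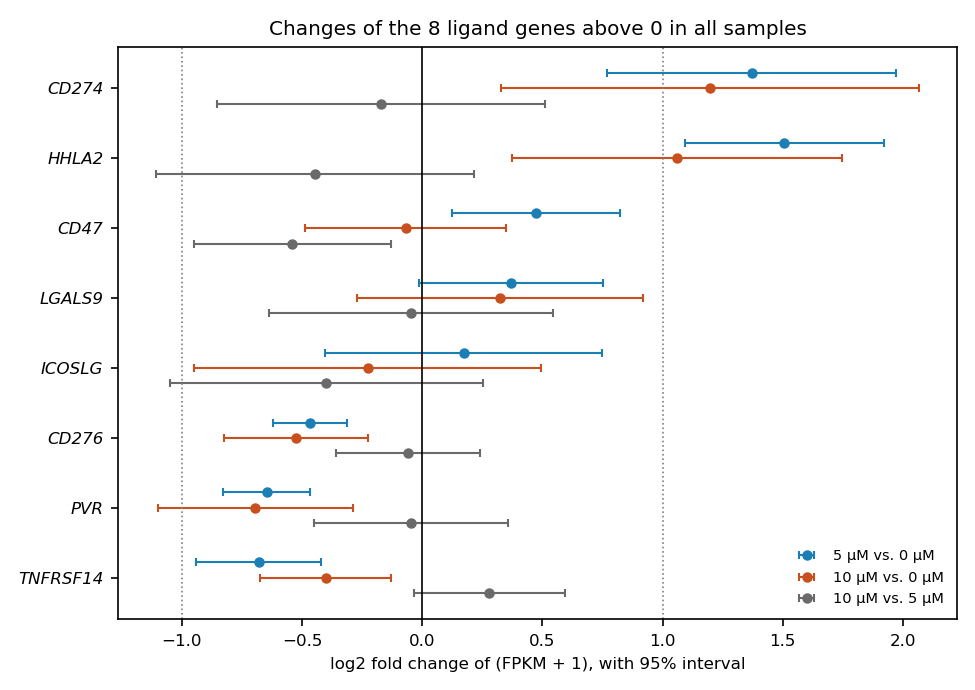
Log2 fold change of (FPKM + 1) with 95% limma intervals (horizontal axis) for the 8 ligand genes above 0 in all 9 samples, with 3 comparisons per gene. Dotted lines mark 2-fold changes. CD274 and HHLA2 lie at 1.37 and 1.51 for 5 µM vs. 0 µM, whereas CD276, PVR and TNFRSF14 lie between -0.47 and -0.68.

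Counted together for 5 µM vs. 0 µM, 3 of the 10 ligands were called higher (CD274, HHLA2 and VTCN1) and 0 lower. Of the 20051 genes tested in that comparison 14.1% were called higher and 2.17% lower. By adjusted p alone, CD47 joined the genes that rose and CD276, TNFRSF14 and PVR fell, which makes 4 higher and 3 lower, against 21.3% and 17.7% of all genes tested. The replicates of the same 7 members did not overlap with the controls, where 29.4% of all genes were higher and 23.2% lower in this way. The median log2 change of the members was 0.42 and that of all genes tested 0.14. For 10 µM vs. 0 µM limma called 0 members, with 4.07% of 18928 genes called higher and 3.4% lower. At an unadjusted p under 0.05 there were 6 members in that comparison, or 6 of 10 against 35.5% of all genes tested. CD276 and PVR passed the adjusted p without the fold threshold (0 members upward and 2 downward, against 5.39% and 9.71% of all genes), and 3 members were higher and 3 lower without overlap (14.4% and 26.7% of all genes). For 10 µM vs. 5 µM limma again called 0 members, 1 had an unadjusted p under 0.05 (24.8% of all genes), and 0.129% of 20085 genes were called higher and 4.82% lower (0.319% and 5.85% without the fold threshold). The replicates of TNFRSF14 were higher and those of CD47 lower without overlap in that comparison, as were 4.37% and 25.3% of all genes tested.

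The scale of the 10 µM libraries bears on these values. Median-of-ratios scaling, which sets the middle gene of each library to the same level, removes a log2 difference between the groups of -0.24 for 10 µM vs. 0 µM, -0.20 for 10 µM vs. 5 µM and -0.04 for 5 µM vs. 0 µM from genes well above 0 in all samples, while genes listed at 0 in a sample shift by other amounts. With it, 79.8% of the genes called for 10 µM vs. 0 µM were higher (1125 higher, 284 lower), compared with 54.5% without it (771 higher, 644 lower). CD274 (1.44, adjusted p = 0.0319) and HHLA2 (1.302, adjusted p = 0.0132) were then called at 10 µM as well. CD276 and PVR were still lower (-0.29 and -0.45, adjusted p = 0.0487 and 0.0195), and the values of CD47 and ICOSLG turned from below 0 to above 0 without passing.

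The CpG numbers of all members with a promoter entry can be set beside their changes. At 5 µM the members called higher held 16 (CD274), 6 (VTCN1), and 1, 3 and 0 CpG (the 3 windows of HHLA2). CD47, higher by less than 2-fold, had 39, at percentile 97.8 of all windows. The lower members had 29 and 23 (the windows of CD276), 27 (PVR) and 9 (TNFRSF14), and the members that did not pass had 36 (ICOSLG) and 1 (LGALS9). DNA methylation itself was not measured in these files.

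**Figure D4:**
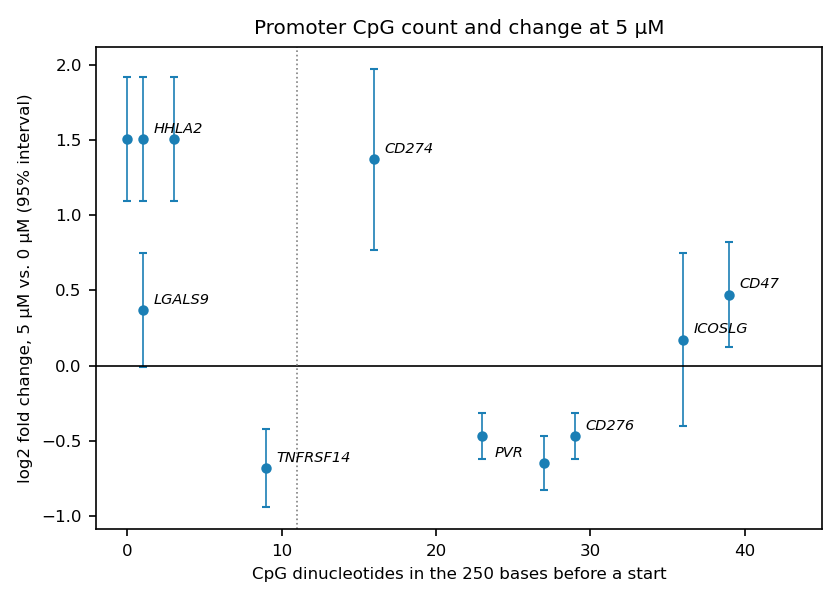
Number of CpG dinucleotides in the 250 bases before each annotated start (horizontal axis) and log2 fold change of (FPKM + 1) for 5 µM vs. 0 µM with its 95% limma interval (vertical axis). Genes with more than 1 annotated start have a point per start, the dotted line is the median of all windows (11), and VTCN1 is left out because of its wide interval. HHLA2 (0 to 3 CpG) and CD274 (16 CpG) have the highest changes, and CD47 (39 CpG) has the most CpG.

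The route from interferon-gamma to CD274 was examined in a list of 19 genes, all tested, that is wider than this route. Beside receptor, JAK, STAT, IRF and SOCS genes and PTPN2, the list holds NFKB1, RELA, CMTM6, CMTM4, SPOP and CD44. Its counts and median are therefore not those of the interferon-gamma route alone. At 5 µM 4 were called higher and 1 lower, against 14.1% and 2.17% of all genes tested, with a list median of -0.14 against 0.14 for all genes tested. The transcription factor STAT2 rose by 1.24 (adjusted p = 0.000267), and the feedback inhibitors SOCS1 and SOCS3 rose by 2.02 and 2.65 (adjusted p = 0.0132 and 0.00229). CD44, a surface receptor for hyaluronan, fell by 1.25 (adjusted p = 0.00038). The receptor chain IFNGR1 (-0.15), the kinases JAK1 (-0.21) and JAK2 (-0.08), the factor IRF1 (0.06) and CMTM6 (-0.21), which protects PD-L1 protein from degradation, did not pass, with adjusted p between 0.15 and 0.741. At 10 µM 0 of the 19 were called by limma against the control, with 12 at an unadjusted p under 0.05 (35.5% of all genes). Most of the list was lower in that comparison: without overlap 3 genes were higher and 9 lower, against 14.4% and 26.7% of all genes tested. The list median was -0.44 against -0.15 for all genes tested.

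Genes beside CD274 on chromosome 9 were counted as well. Among 14 genes of the 9p24 neighbourhood, which include CD274 and PDCD1LG2, 3 were called higher at 5 µM and 0 lower (14.1% and 2.17% of all genes), with a median of -0.005 against 0.14 for all genes tested. Apart from CD274 these were INSL6 and RLN2, both of the relaxin family and both listed at 0 in all controls. INSL6 had 1282, 2024 and 4793 FPKM at 5 µM, and RLN2 had 1877, 2963 and 1031. INSL6 was near the limit of detection, on 2, 3 and 8 fragments, and a single fragment in control replicate 1 would have counted 1542 FPKM. The RLN2 values followed whole steps less closely (deviation up to 0.029, against 0.0 for INSL6), so no fragment number is given for RLN2. By adjusted p alone ERMP1 (-0.86, adjusted p = 0.00121) and RCL1 (-0.52, adjusted p = 0.0249), named after their values were seen, were lower at 5 µM. Without overlap 5 of the 14 were higher and 2 lower, against 29.4% and 23.2% of all genes tested. INSL4, also named after its values were seen, was among the higher genes on 67 fragments against 7 in the controls, but was not called (adjusted p = 0.176). The neighbours C9orf46 (-0.20) and KIAA1432 (0.24), which flank the PD-1 ligand pair, did not pass (adjusted p = 0.311 and 0.123). At 10 µM limma called 0 of the 14 against the control, and 4 had an unadjusted p under 0.05, as had 35.5% of all genes.

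Over the 9 samples, the genes whose log2(FPKM + 1) followed CD274 most closely were SEPP1 (Pearson r = 0.989), ARHGEF26 (0.988), SEPN1 (0.985), TIMELESS (0.983) and MFSD4 (0.981), out of 15277 genes above 0 in all samples. This is a description over samples that share 3 treatment groups, and no test was made. Among the other ligands HHLA2 followed CD274 most closely (r = 0.945), and TNFRSF14 (-0.872), PVR (-0.848) and CD276 (-0.840) ran opposite to it. SEPP1, which encodes a secreted selenoprotein, had 7138 to 8956 FPKM in the controls, 20418 to 24004 at 5 µM and 16986 to 24828 at 10 µM.

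The identity of the cells was checked with markers. All 8 colon epithelium markers (EPCAM, CDH1, KRT8, KRT18, KRT19, KRT20, CDX2 and VIL1) were above 0 in all samples, and their summed level was lower in the treated cultures, as were PVR, TNFRSF14 and CD276: 83697344 to 100619436 FPKM in the controls, 33186906 to 37490596 at 5 µM and 26737752 to 46602722 at 10 µM. KRT8 and KRT18 make up most of this sum. At 5 µM limma called 3 of the 8 lower, against 2.17% of all genes tested. These were KRT8 (-1.65, adjusted p = 0.00113), KRT18 (-1.64, 0.000999) and KRT19 (-1.79, 0.000271). KRT20, CDX2 and VIL1 were lower by adjusted p alone (0.0371, 0.00513 and 0.00907), whereas EPCAM (-0.23) and CDH1 (-0.06) did not pass (0.197 and 0.594). For 10 µM vs. 0 µM KRT19, KRT20 and CDX2 were called lower (3.4% of all genes). All 8 were then lower without overlap (26.7% of all genes). The 8 leukocyte markers summed to 38171 to 50358 FPKM in the controls, 46061 to 61285 at 5 µM and 45070 to 54922 at 10 µM, and most of this was CD14 (35247 to 50081 over all samples), which did not pass at 5 µM (-0.09, adjusted p = 0.623). ITGAM rose by 3.94 (adjusted p = 0.00193) at 5 µM and by 2.47 (adjusted p = 0.0451) at 10 µM, from 446 to 1346 FPKM in the controls to 8026 to 11825 and 2649 to 5341. CD3E was called higher at 5 µM (adjusted p = 0.000793) on 3 or 4 fragments per culture. Thus 2 of the 8 leukocyte markers were called higher at 5 µM and 1 at 10 µM, against 14.1% and 4.07% of all genes tested. Of the leukocyte markers, CD3D and CD3E were listed at 0 in all controls, MS4A1 in all 5 µM cultures, and CD3D and MS4A1 in all 10 µM cultures. The 5 markers of stroma and endothelium summed to 7733 to 12672, 42443 to 55950 and 22028 to 27991 FPKM in the same order. At 5 µM 4 of them (COL1A1, PDGFRB, PECAM1 and VWF) were called higher (14.1% of all genes tested), and COL1A1 also at 10 µM (4.07%). The part of these markers in the ligand changes was not tested, and in bulk RNA more cells with a transcript and more transcript per cell cannot be told apart.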

How the data were processed

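HT-29 cells were treated with 0, 5 or 10 µM 5-Aza for 5 days in 3 separate cultures each, as GEO's labels and the study's methods give them. The authors used FASTX-Toolkit to filter paired-end reads, TopHat to align them (hg19) and Cufflinks to obtain FPKM per gene. The deposited FPKM values were used as they stand, and each of the 10 ligands stood on 1 of 24934 entries per file. Values of repeated symbols were summed and transformed as log2(FPKM + 1); fitted changes of low genes, and of those listed at 0 in a group above all, depend on that constant. Genes with a value of at least 10 in any of the 6 samples of a comparison entered a fit of these samples in limma 3.58.1 (R 4.3.3; lmFit, eBayes with trend), with Benjamini-Hochberg adjustment over all genes tested and calls at an adjusted p of at most 0.05 and more than 2-fold. The study compared 5 µM vs. 0 µM and 10 µM vs. 5 µM, and 10 µM vs. 0 µM was added here. Fragments were read from whole-number steps of FPKM (tolerance 0.05, at most 200 fragments). Where values did not follow such steps, as for VTCN1, fragments were estimated from the longest transcript. At 163 of 259 genes with a single transcript such estimates came within 15% of the steps. Scripts were tested on simulated data. For the fit these held only genes well above 0 in the controls, so genes at the levels of CD274, PDCD1LG2 and VTCN1 were not simulated. Intervals of fragments are exact and cover counting error only. Positions are from GENCODE on GRCh37 and promoter windows from RefSeq on GRCh38.p14, with no conversion between builds. The ligands and gene lists, and the genes named (all 10 ligands, IFNGR1, JAK1, JAK2, IRF1, CMTM6, the called genes of each list or, where more than 4 were called, the 4 with the largest change, and the 5 genes most like CD274), were chosen with earlier results of these data known. A gene under this rule is not reported here.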

Additional observations from a re-analysis of the deposited data

How the results depend on the processing

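Over up to 14 alternatives for each ligand and comparison, scored by the call (adjusted p together with the 2-fold threshold), 388 single-gene results kept their direction and side of the threshold, 10 were called only under an alternative, 7 were no longer called and 14 changed sign. Genes that passed by adjusted p alone, such as CD276 and PVR, are not scored on that p here. The 7 all concern VTCN1 at 5 µM, which also did not pass with all 9 samples in one fit (adjusted p = 0.0902). Without a fold threshold, the number of ligands called was 7 for 5 µM vs. 0 µM and 2 for 10 µM vs. 0 µM. The latter number was 1 with a pseudocount of 1000 (HHLA2), 2 when every replicate of 1 group had to reach 10 (CD274 and HHLA2), 2 with median-of-ratios scaling (the same genes) and 3 with all 9 samples in one fit (these and PDCD1LG2). VTCN1 was not tested at 10 µM under that stricter minimum. Leaving out single replicates, 2 to 4 ligands were called for 5 µM vs. 0 µM, 0 to 1 for 10 µM vs. 0 µM (1 without control replicate 3) and 0 for 10 µM vs. 5 µM. The replicate block gave the same 3, 0 and 0 calls, with 2553 higher and 414 lower genes in all at 5 µM, and 11 higher and 407 lower for 10 µM vs. 5 µM against 26 and 969 without it. Same-numbered samples did not deviate together (correlations of -0.07 to 0.09 in 9 pairs, against -0.16 to 0.10 in 18 pairs of different numbers), so no pairing by number was seen. Whether same-numbered cultures were handled together is not given in the labels.

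The sign changes are of values that did not pass. For 5 µM vs. 0 µM, ICOSLG was -0.0075 without control replicate 3, the lowest of its leave-one-out values (highest 0.34). For 10 µM vs. 0 µM, CD47 was 0.17 with median-of-ratios scaling, 0.0471 without control replicate 1 and 0.0374 without 10 µM replicate 3 (lowest -0.20), and ICOSLG was 0.015 with that scaling. For 10 µM vs. 5 µM, the scaling gave 0.0303 for CD274, 0.14 for CD276, 0.16 for LGALS9 and 0.16 for PVR. LGALS9 was 0.0266 without 5 µM replicate 1 and 0.22 without 10 µM replicate 1 (lowest -0.26), and PVR was 0.0049 without 5 µM replicate 3, 0.0135 without 10 µM replicate 1 and 0.0203 without 10 µM replicate 3 (lowest -0.18). The scaling multiplies every value of a library by 1 factor; the cause of the other changes was not tested. Depth limits PDCD1LG2 and VTCN1 most, since a few fragments decide their values and limma does not model counting error.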

Other observations

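Other ligands that tumour cells can present were examined as well. Of 32 further checkpoint and costimulatory ligands 30 were tested for 5 µM vs. 0 µM, and 8 were called higher and 0 lower, against 14.1% and 2.17% of all genes tested. By adjusted p alone 8 were higher and 4 lower (21.3% and 17.7% of all genes). The median log2 change of 1.12, against 0.14 for all genes tested, depends on the constant added before the logarithm, since 11 of the 30 were listed at 0 in a sample: with 1000 in place of 1, an alternative chosen after seeing the data, the medians were 0.34 and 0.085. TNFSF9, the ligand of the costimulatory receptor 4-1BB, had 1576, 696 and 2705 FPKM in the controls, 21396, 20448 and 19388 at 5 µM, and 4959, 7060 and 6481 at 10 µM. It rose by 3.83 (SE 0.50, limma adjusted p = 0.00186) for 5 µM vs. 0 µM and fell by 1.74 (SE 0.24, adjusted p = 0.00936) for 10 µM vs. 5 µM. LGALS1, the galectin-1 gene, rose by 2.76 (SE 0.33, adjusted p = 0.00135) and fell by 2.15 (SE 0.21, adjusted p = 0.004) in the same comparisons, from 10367 to 24923 FPKM in the controls to 99745 to 134189 at 5 µM and 22642 to 34167 at 10 µM. TNFSF18, the ligand of GITR, was listed at 0 in all controls and all 10 µM cultures and had 1186, 2496 and 2772 FPKM at 5 µM, on only 2, 4 and 5 fragments. In control replicate 1 a single fragment of it would have counted 1426 FPKM. The called ligands TNFSF14 (adjusted p = 0.014) and BTN1A1 (adjusted p = 0.00128) also had low values, with BTN1A1 at 360 to 674 FPKM at 5 µM and listed at 0 in all controls. For 10 µM vs. 0 µM, BTN3A1, a butyrophilin sensed by gamma-delta T cells, was the 1 ligand called of 29 tested, with a rise of 1.02 (adjusted p = 0.0238). Of all genes tested in that comparison 4.07% were called higher and 3.4% lower. The 5 µM and 10 µM ranges of TNFSF9 and LGALS1, both called lower between these concentrations, did not overlap, while those of CD274 and HHLA2 did. Of the 31 further ligands tested for 10 µM vs. 5 µM, 12 were lower and 1 higher without overlap (25.3% and 4.37% of all genes). Overlap is therefore not particular to CD274 and HHLA2.

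Transcripts of receptors that immune cells use to bind these ligands were also counted in the HT-29 cultures. Of 15 receptor genes, all tested for 5 µM vs. 0 µM, 3 were called higher and 0 lower, against 14.1% and 2.17% of all genes tested. Their median log2 change was 3.94, but 12 of the 15 were listed at 0 in a sample, and with 1000 as the constant the median was 0.55 against 0.085 for all genes tested. CTLA4, an inhibitory T cell receptor, was listed at 0 in all controls, had 17450, 14389 and 15471 FPKM at 5 µM and 1816, 1724 and 814 at 10 µM. It was called in all 3 comparisons (adjusted p = 0.000161, 0.00777 and 0.0058 for 5 µM vs. 0 µM, 10 µM vs. 0 µM and 10 µM vs. 5 µM), the last in the downward direction. TMIGD2, a receptor of HHLA2, was listed at 0 in all controls and had 609, 1282 and 1423 FPKM at 5 µM (adjusted p = 0.000765), on 2, 4 and 5 fragments, and a single fragment in control replicate 1 would have counted 733 FPKM. CD28 had 285 to 571 FPKM at 5 µM (adjusted p = 0.00132), on 4 to 9 fragments, and was listed at 0 in the other cultures. PDCD1, which encodes PD-1 and is given here although the rule for named genes did not select it, had 803, 0 and 376 FPKM in the controls and 5007, 5621 and 5461 at 5 µM, on 4 and 97 fragments (adjusted p = 0.0903). The fragment ratio of PDCD1 was 15.51, with a counting interval of 5.87 to 58.05. Among the leukocyte markers, 2 of 8 (ITGAM and CD3E) were called higher at 5 µM, against 14.1% of all genes tested, and their part in the receptor values was not tested.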
